A study of Mus musculus with 48 samples.

Results

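The nuclear factor I (NFI) family of transcription factors, encoded by Nfia, Nfib, Nfic and Nfix, was followed in mouse astrocytes, the star-shaped glial cells that support neurons and synapses. The members were taken by symbol, and all 4 of the 4 were present among the 24421 symbols of each of the 6 tables. In the 28 developmental libraries, astrocytes labelled by age came from the cortex, hippocampus and olfactory bulb at postnatal day 1, 7 or 14 (P1, P7, P14), with no genotype, strain or treatment given in the labels. Each of those groups held 3 libraries, except cortex P14 with 4. In the other 20 libraries, the same regions were taken at P28 from animals labelled Gabbr1 control or Gabbr1 cKO, a conditional knockout of a GABA-B receptor subunit, with 4 and 4 cortical libraries, 2 and 4 hippocampal ones, and 3 and 3 from the olfactory bulb. Tamoxifen, the drug that activates an inducible Cre recombinase, is labelled for control and cKO alike in hippocampus and olfactory bulb and for 3 of the 8 cortex libraries. The other 5 cortex libraries carry no treatment label. The labels name neither the Cre line nor its promoter, and do not say how astrocytes were separated from other dissociated cells or whether libraries came from separate animals, so p-values measure only the spread between these libraries.

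NFI proteins bind DNA as dimers through a shared amino-terminal domain, and their recognition site is a palindrome of TTGGC, 5 bases and GCCAA, of which one side alone is bound more weakly. Nfia and Nfib switch neural progenitors from making neurons to making glia in the embryo, and Nfia acts with Sox9 on astrocyte genes. Nfix controls the timing of progenitor differentiation in the hippocampus and the ventricular zone, and Nfic is best known for its role in tooth root formation.

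On the GRCm38 build, Nfia (ENSMUSG00000028565.18) lies at chr4:97578066-98118876 on the plus strand and Nfib (ENSMUSG00000008575.17) at chr4:82290173-82506751 on the minus strand. Nfic (ENSMUSG00000055053.18) lies at chr10:81396191-81431919 and Nfix (ENSMUSG00000001911.16) at chr8:84704712-84801238, both on the minus strand. Annotated genes overlap each span, 5 for Nfia, 1 for Nfib, 3 for Nfic and 2 for Nfix. Whether counting used strand is not given in the sources used here, so reads of overlapping genes on opposite strands cannot be told apart.

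Promoter windows from RefSeq (GRCm38.p6), each running from 250 bases before to 50 bases after a start, were searched for the palindrome and for either side alone. Of the 4 members, 3 had an entry, with 6 windows in all because Nfix has several starts. Of the 10 genes on a list of known NFI targets, 8 were searched, with 1 window each. Windows on 1 chromosome were left out for members and targets but kept in the share of all windows. No member or target window held the whole palindrome, which 12 of 32851 windows (0.0365%) held. Either side alone, TTGGC or GCCAA, was in 3 of 6 member windows and in 5 of 8 target windows, against 46.7% of all windows. The windows below are those of the member with the most matches in one window and of 3 of the targets that held a match. They are written 5′ to 3′ on the gene's strand with each TTGGC or GCCAA in capitals. A match is a description of letters, not of binding.
Nfix, chr8:84772826-84773125, minus strand: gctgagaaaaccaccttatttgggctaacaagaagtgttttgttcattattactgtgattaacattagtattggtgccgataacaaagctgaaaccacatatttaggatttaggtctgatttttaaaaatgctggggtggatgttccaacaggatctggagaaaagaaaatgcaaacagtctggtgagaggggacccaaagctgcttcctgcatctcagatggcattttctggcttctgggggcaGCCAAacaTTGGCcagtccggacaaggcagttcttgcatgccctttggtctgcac
Fabp7, chr10:57784673-57784972, plus strand: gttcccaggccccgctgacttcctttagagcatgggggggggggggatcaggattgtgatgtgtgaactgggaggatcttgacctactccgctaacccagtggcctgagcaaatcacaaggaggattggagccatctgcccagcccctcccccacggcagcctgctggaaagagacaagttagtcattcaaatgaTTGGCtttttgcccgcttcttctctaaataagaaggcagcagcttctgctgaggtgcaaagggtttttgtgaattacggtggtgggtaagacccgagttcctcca
S100b, chr10:76253586-76253885, plus strand: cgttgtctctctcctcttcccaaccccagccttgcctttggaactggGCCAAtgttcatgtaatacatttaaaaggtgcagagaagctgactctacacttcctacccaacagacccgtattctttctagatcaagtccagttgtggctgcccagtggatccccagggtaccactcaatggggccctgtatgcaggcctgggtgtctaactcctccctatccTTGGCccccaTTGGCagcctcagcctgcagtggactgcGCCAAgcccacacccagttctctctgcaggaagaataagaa
Ezh2, chr6:47594981-47595280, minus strand: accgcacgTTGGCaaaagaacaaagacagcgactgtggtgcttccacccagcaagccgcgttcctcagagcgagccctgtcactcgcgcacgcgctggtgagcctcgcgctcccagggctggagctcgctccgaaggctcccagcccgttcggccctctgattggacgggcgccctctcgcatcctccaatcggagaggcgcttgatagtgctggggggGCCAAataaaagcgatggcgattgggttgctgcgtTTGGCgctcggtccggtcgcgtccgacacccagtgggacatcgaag
The 2 matches in the Nfix window face away from each other 3 bases apart and so do not form the palindrome. S100b held 4 matches, Ezh2 3 and Fabp7 1. Of the target windows not printed, Mmd2 and Zcchc24 held 1 each, and Gfap, Slc1a3 and Aldh1l1 held 0.

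Libraries held between 1773226 and 15008466 reads in genes. The ribosomal RNA gene Rn45s took 13.7 to 38.0% of reads in 46 libraries, but 0.476 and 0.594% in the other 2, which were hippocampus P28 cKO replicate 2 and olfactory bulb P28 control replicate 2. The differences of the members at P28 are therefore also given without those libraries. The Gabbr1 check, levels per kilobase, ratio means and list counts at P28 keep them. Values are normalized reads, the read count of a gene divided by one factor per library, and each table was scaled on its own, so levels in different tables stand side by side without a test. The members rested on 72 to 33840 reads per library. Gabbr1 itself, the check of the genotype labels, was lower in every cKO library than in every control library, at 9.23% of the control mean in cortex, 29.8% in hippocampus and 34.9% in the olfactory bulb.

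The label astrocyte was checked against markers. All 12 astrocyte markers were detected in every group, and their summed level was above that of 12 neuron markers in every group outside the olfactory bulb at P1 and P7. In the bulb the neuron sum ran from 20035 to 23854 normalized reads at P1, above the astrocyte sum of 5834 to 7885, and the sums overlapped at P7. The astrocyte sum rose with age in all regions and the neuron sum fell, without overlap between P1 and P14. In cortex the astrocyte sum went from 24044 to 31468 at P1 to between 512348 and 571752 at P14, and the neuron sum from between 10967 and 14938 to between 1785 and 2109. In hippocampus the astrocyte sum went from between 14964 and 17429 to between 446624 and 482551, and the neuron sum from between 9760 and 11731 to between 2353 and 2579. In the olfactory bulb the astrocyte sum reached 145626 to 165928 at P14 and the neuron sum fell to between 4751 and 5836. Markers of mature oligodendrocytes also rose, in cortex from at most 381 to at least 15195 normalized reads summed over 6 genes, although Mobp, Mag or Mog was at 0 in whole hippocampal and olfactory groups. Markers of dividing cells fell in cortex from at least 943 to at most 203 and in hippocampus from at least 2150 to at most 923. In hippocampus the choroid plexus and meningeal sum was 114 to 383 at P1 and 3941 to 7981 at P14. In the olfactory bulb, oligodendrocyte precursor markers summed to 127 to 165 at P1 and 1086 to 1137 at P14, microglial markers to 16.0 to 25.1 and 189 to 325, and endothelial and mural markers to 41.6 to 87.7 and 286 to 1662. The microglial sum also rose in cortex, from at most 385 to at least 970, and in hippocampus, from at most 71.9 to at least 188. The precursor sum rose in hippocampus from at most 560 to at least 859 and fell in cortex from at least 1164 to at most 1068. The part of these other cells in the age results below was not tested, and in bulk samples fewer cells of a type and less RNA per cell cannot be told apart.

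Nfic rose in all 3 regions between P1 and P14, and most of the rise came after P7. In cortex it was 187, 233 and 253 normalized reads at P1, 237, 267 and 175 at P7, and 609, 523, 636 and 699.8 at P14. In hippocampus it was 152, 255 and 157 at P1, 225, 219.6 and 222 at P7, and 648, 648 and 552 at P14. In olfactory bulb it was 80.7, 91.1 and 81.6 at P1, 97.1, 114 and 115 at P7, and 372, 317 and 332 at P14. Each P14 library lay above every earlier library of its region. On the log2(value + 1) scale, P14 exceeded P1 by 1.46 ± 0.15 in cortex, 1.74 ± 0.20 in hippocampus and 2.00 ± 0.17 in the olfactory bulb (limma, SE). The adjusted p values were 2.24e-06, 2.39e-05 and 3.62e-06. From P1 to P7 the differences were 0.0025, 0.28 and 0.36, none called, while P14 against P7 gave 1.46, 1.46 and 1.64, all called.

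Nfib fell in cortex and hippocampus and did not pass the test in the olfactory bulb. In cortex it was 4306, 3420.1 and 3912 at P1, 2707, 2978 and 2518 at P7, and 1969, 1861, 2067 and 1967 at P14. In hippocampus it was 11810.1, 15076 and 11287 at P1, 4586, 4428 and 3989 at P7, then 4408, 4773 and 3719 at P14. The cortex libraries of the 3 ages formed steps that did not overlap, whereas in hippocampus the P7 and P14 libraries overlapped. The change from P1 to P14 was -0.97 ± 0.09 in cortex and -1.56 ± 0.14 in hippocampus, with adjusted p values of 7.54e-07 and 2.73e-06 (limma). Quantile normalization gave -1.47 and -3.24. The cortical decline was called in both steps, at -0.50 and -0.47. The hippocampal one was -1.54 by P7 and then -0.02, with an adjusted p of 0.940 for the second step, which quantile normalization turned into a called -0.69. In olfactory bulb Nfib was 3759, 3179 and 3555 at P1, 2369, 2414 and 4577 at P7, and 3033, 3206 and 2623 at P14. P7 replicate 3 was the highest library there, and was also the highest P7 library for Nfia and Nfix. P7 against P1 was -0.23 for Nfib and became called at -0.54 without it (limma, adjusted p = 0.0153). The P1 and P14 groups overlapped, and the difference of -0.25 had a 95% interval from -0.73 to 0.24 (limma, adjusted p = 0.362).

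Nfix changed in opposite directions in different regions. In cortex it was 3292, 2835 and 3235 at P1, 1552, 1424 and 1062 at P7, and 1543, 1314, 1564 and 1529 at P14. In hippocampus it was 3660.0, 5473 and 3255 at P1, 1602, 1657 and 1634 at P7, and 1849.8, 1808 and 1453 at P14. Both regions lost more than the spread between libraries in the first week, and neither changed by the test in the second. In olfactory bulb it was 426, 403 and 408 at P1, 462, 498 and 757 at P7, and 1435, 1290.2 and 1052 at P14, so that all P14 libraries were the highest. From P1 to P14 Nfix fell by 1.07 ± 0.12 on the log2 scale in cortex and by 1.25 ± 0.17 in hippocampus. It rose by 1.60 ± 0.19 in the olfactory bulb, and the 3 adjusted p values were 4.14e-06, 1.12e-04 and 3.66e-05 (limma). The hippocampal value was -2.15 under quantile normalization. The regions sit in separately scaled tables, so the difference between their changes was not tested.

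Nfia rose in the olfactory bulb, where it was 1164, 1469 and 1356 at P1, 1239, 1489.7 and 2159 at P7, then 6799.9, 6068 and 5127 at P14. The gain fell in the second week, with 1.91 ± 0.19 from P7 to P14 against 0.26 ± 0.19 from P1 to P7, and all P14 libraries stood above the rest. The second-week gain was 1.18 under quantile normalization. From P1 to P14 the change was 2.17 ± 0.19, a 4.51-fold rise of the mean (limma, adjusted p = 4.70e-06). In cortex Nfia was 3428, 3443 and 3829.6 at P1, 4503, 5066 and 4089.9 at P7, then 4355, 4032, 4582 and 5029 at P14. The P1 libraries were the lowest, and P14 exceeded P1 by 0.33 ± 0.10 (limma, adjusted p = 0.00857), although quantile normalization turned this to -0.21 with an adjusted p of 0.0376 and TMM scaling gave 0.56. In hippocampus Nfia was 5808, 7917 and 5278 at P1, 4746, 4618 and 5062 at P7, and 7353, 8241 and 7625 at P14. P7 was the lowest age, at -0.38 from P1 (limma, adjusted p = 0.0911, or 0.0494 without P1 replicate 3; -0.20 without P1 replicate 2), and the groups P1 and P14 overlapped through P1 replicate 2. The rise from P7 to P14 was 0.69 ± 0.14 (limma, adjusted p = 0.00373), but quantile normalization gave -0.10. P14 against P1 was 0.31 ± 0.14 and missed the threshold (limma, adjusted p = 0.0874). It passed as 0.48 without P1 replicate 2 and turned to -0.99 under quantile normalization, so no direction is given for hippocampal Nfia over that span.

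**Figure D1:**
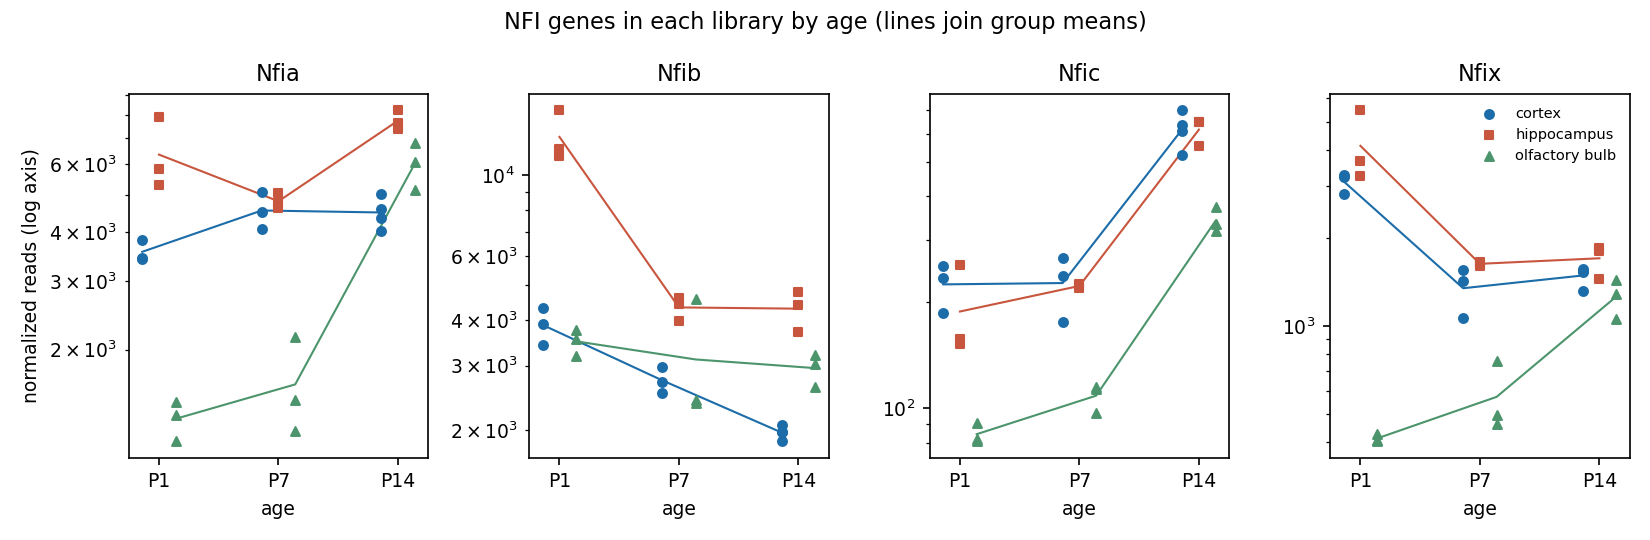
Normalized reads (log axis) of each NFI gene in every developmental library against age, with cortex as circles, hippocampus as squares, olfactory bulb as triangles and lines through group means. Nfic climbs after P7 in all regions, Nfib and Nfix drop in cortex and hippocampus, and Nfia and Nfix climb in the olfactory bulb. Under quantile normalization Nfia turns from P1 to P14 in cortex and hippocampus and from P7 to P14 in hippocampus.

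Large shares of all genes changed with age, and the members' counts are read against them. From P1 to P14 all 4 members were called in cortex, 2 higher and 2 lower, where 64.4% of 11822 genes were called (24.0% higher and 40.3% lower). In hippocampus 3 were called, 1 higher and 2 lower, against 49.5% of 11578 genes (21.0% higher and 28.5% lower). In olfactory bulb 3 were called, all higher, against 56.1% of 11490 genes (24.8% higher and 31.4% lower). From P1 to P7 the members called were 3 in cortex, 2 in hippocampus and 0 in the olfactory bulb, against 33.7%, 18.1% and 10.6% of genes. The cortical count holds Nfia, which was no longer called without P1 replicate 2 or P7 replicate 2. From P7 to P14 they were 2, 2 and 3, against 49.8%, 30.1% and 47.0%. With so many genes called, a call of a member is not particular to it. The median gene itself moved by -0.27 in cortex, -0.29 in hippocampus and -0.24 in the olfactory bulb from P1 to P14, and by -0.04, -0.22 and -0.13 after scaling by trimmed means (TMM). Under TMM and quantile normalization, Nfic still rose in all regions, and Nfib and Nfix still fell in cortex and hippocampus. The counts above also hold Nfia calls that quantile normalization turned. These became -0.21 from P1 to P14 in cortex and -0.10 from P7 to P14 in hippocampus.

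**Figure D2:**
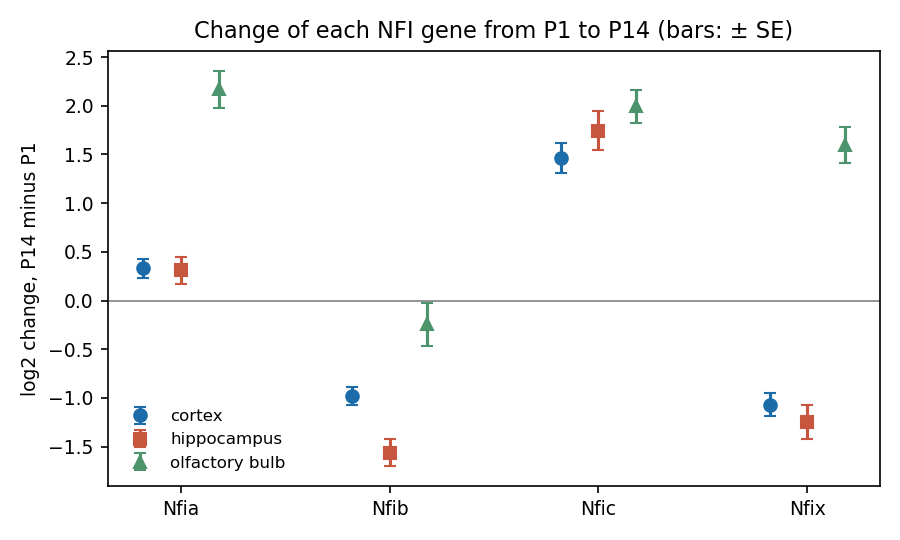
Difference in log2(value + 1) between P14 and P1 for each NFI gene, with bars of 1 SE from limma. Nfic lies above 0 in all 3 regions, Nfix lies below 0 in cortex and hippocampus and at 1.60 in the olfactory bulb, and the cortical and hippocampal Nfia points turn negative under quantile normalization.

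The order of the members was compared per kilobase of exon, since longer genes collect more reads. In cortex at P1, the order was Nfix (459 ± 37), Nfib (410 ± 47) and Nfia (366 ± 23 normalized reads per kilobase, SD, n = 3). Nfib overlapped both of the others, Nfix and Nfia did not overlap each other, and Nfic was lowest at 33.9 ± 5.2. By P14 Nfia led at 461 ± 43 without overlap, Nfix and Nfib overlapped at 219 ± 17 and 208 ± 8.9, and Nfic was at 93.1 ± 11 (SD, n = 4). In hippocampus at P1, Nfib led at 1344 ± 217, above the overlapping Nfia and Nfix (649 ± 143 and 608 ± 174). At P14 the order was Nfia, Nfib, Nfix and Nfic, at 793 ± 47, 454 ± 57, 251 ± 32 and 92.9 ± 8.4, with no overlap between neighbours. In olfactory bulb at P1 the order was Nfib, Nfia, Nfix and Nfic, at 369 ± 31, 136 ± 16, 60.7 ± 1.8 and 12.7 ± 0.87, again without overlap. At P14 Nfia had passed Nfib there, at 615 ± 86 against 312 ± 32. Nfia was thus the highest member per kilobase at P14 in every region, and Nfic the lowest member by mean in all 15 groups.

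Ratios between members in the same library do not depend on the scaling factor, apart from the added 1. The log2 ratio of Nfib to Nfia fell in each region from P1 to P14, from 0.12 to -1.19 in cortex, from 1.02 to -0.85 in hippocampus, and likewise from 1.40 to -1.02 in the olfactory bulb. At P1 it ran from -0.0096 to 0.33 in cortex, from 0.93 to 1.10 in hippocampus, then from 1.11 to 1.69 in the olfactory bulb, and at P14 every library of every region was negative. The differences were -1.31, -1.87 and -2.42, with exact two-sided permutation p values of 0.0571, 0.1 and 0.1. These are the smallest p that 4 against 3 and 3 against 3 libraries allow, and the adjusted value over 36 ratio tests was 0.212. The ratio of Nfix to Nfia also fell in every region, by 1.40, 1.56 and 0.57 on the log2 scale, without overlap and with the same exact permutation p values. Nfix to Nfib, in contrast, moved by -0.09 in cortex with overlapping groups, by 0.31 in hippocampus and by 1.84 in the olfactory bulb. The gain of Nfic over Nfib was 2.43, 3.30 and 2.24, and of Nfic over Nfia 1.13, 1.43 and -0.17.

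**Figure D3:**
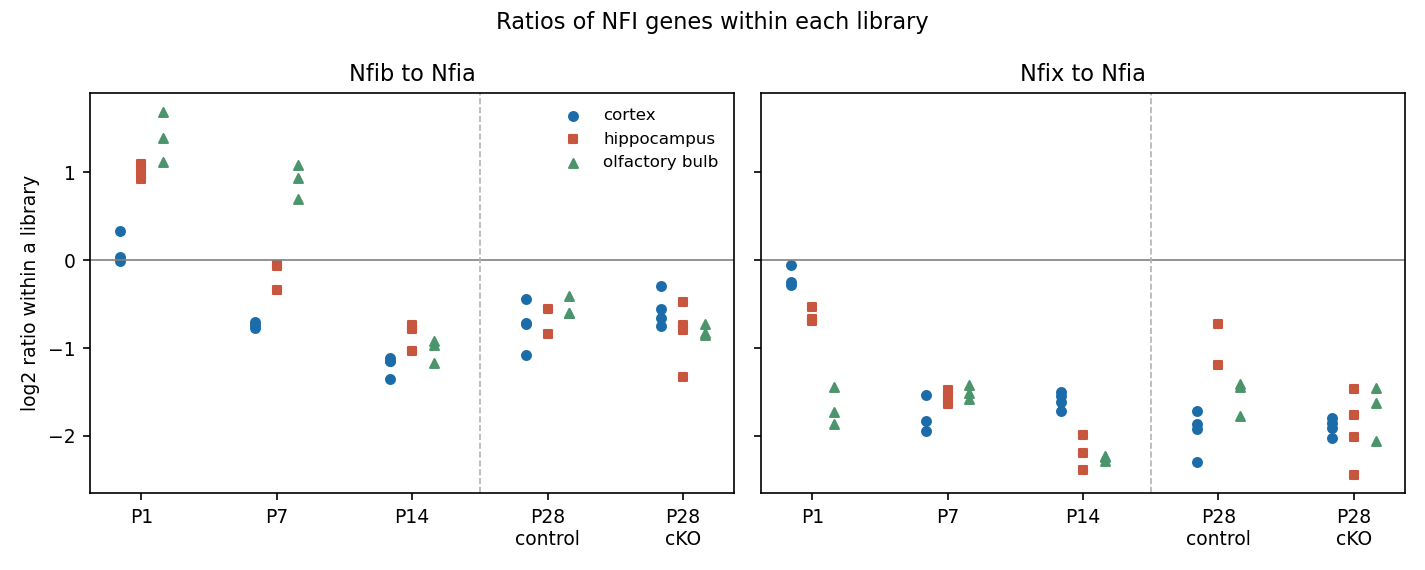
Log2 ratios of Nfib to Nfia and of Nfix to Nfia within each library, for the developmental ages and, right of the dashed line, P28 control and cKO. The Nfib to Nfia ratio is at or above -0.0096 in every P1 library and below 0 in every P14 and P28 library.

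Correlations between members over the libraries of one region describe how they moved together; libraries share their age, so no test is given. In olfactory bulb Nfia went with Nfic (Pearson r = 0.98, 9 libraries) and with Nfix (r = 0.98). In hippocampus Nfib went with Nfix (r = 0.98, 9 libraries), and in cortex the same pair had r = 0.80 (10 libraries). Nfia and Nfib had r = -0.61, 0.11 and -0.07 in cortex, hippocampus and olfactory bulb.

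Among 4160 genes with a mean of at least 100 in each developmental table, those nearest to each member were ranked by the mean of the 3 regional correlations. For Nfic they were Trp53inp2 (mean r = 0.97), Chst2 (0.97), a carbohydrate sulfotransferase, and Ahcyl1 (0.97), a regulator of the IP3 receptor. For Nfia they were Tead1 (0.86), a transcription factor of the Hippo pathway, Bmpr2 (0.85), a receptor for bone morphogenetic proteins, and Lnpep (0.85), an aminopeptidase. For Nfib they were Syncrip (0.90), an RNA-binding protein, Lrch2 (0.86) and Upf2 (0.85), a factor of nonsense-mediated decay. Nfix had no neighbour so close, with Zbtb18 (0.75), a transcriptional repressor of cortical development, Prpf19 (0.74), a splicing factor, and Scrn1 (0.74).

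Genes known to act with NFI proteins or beside them in glial differentiation formed a list of 12 partners, of which Atf3 and, except in the olfactory bulb, Runx2 were too low to test by age. In cortex 3 of 10 tested rose and 3 fell from P1 to P14, in hippocampus 1 rose and 2 fell of 10, and in the olfactory bulb 7 rose and 3 fell of 11. The shares of all genes called were 64.4%, 49.5% and 56.1%, so the cortical and hippocampal counts were no higher than the background. The list medians were 0.16, 0.02 and 1.94, beside medians of -0.27, -0.29 and -0.24 for all genes tested. Sox9, the factor that works with Nfia at gliogenic genes, rose in all 3, by 1.197 ± 0.106, 1.14 ± 0.15 and 2.01 ± 0.20 (limma, adjusted p = 4.22e-07, 5.61e-05 and 9.06e-06). Zbtb20, a repressor active in hippocampal development and astrocyte formation, was at 3146 ± 464 and 2304 ± 304 normalized reads in hippocampus at P1 and P14 and fell by 0.45 ± 0.14. In olfactory bulb Zbtb20 rose from 935 ± 130 to 1833 ± 178 (SD, n = 3). Hes5, a Notch effector, rose in cortex (1.12 ± 0.26) and olfactory bulb (3.53 ± 0.47) and was 0.74 ± 0.29 in hippocampus (limma, adjusted p = 0.0522). Pou3f2, a neural POU factor, fell in cortex (-0.85 ± 0.14) and olfactory bulb (-1.82 ± 0.22). Sox9 is also an astrocyte marker and Olig2, which rose by 2.98 ± 0.26 in the olfactory bulb and fell by 0.64 ± 0.16 in cortex, an oligodendrocyte lineage marker.

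Of 10 genes known as NFI targets in glia, 5 rose and 2 fell in cortex, 6 rose and 2 fell in hippocampus, and 9 rose and 1 fell in the olfactory bulb. Of all genes, 24.0%, 21.0% and 24.8% were called higher and 64.4%, 49.5% and 56.1% called in all, so the cortical count of 7 was near the background. The list medians were 0.57, 1.93 and 3.05, beside -0.27, -0.29 and -0.24 for all genes tested. S100b, a calcium-binding protein of astrocytes whose window is printed above, rose from 19.4 ± 3.0 to 1724 ± 154 normalized reads in cortex. Its hippocampal level went from 3.86 ± 2.5 to 724 ± 76, and it went from 2.42 ± 1.4 to 461 ± 76 in the olfactory bulb. Gfap, the astrocyte intermediate filament, went from 2.03 ± 0.53 to 583 ± 43 in the olfactory bulb and from 267 ± 68 to 1233 ± 120 in hippocampus, both called. In cortex Gfap was 520.1 ± 301 at P1 and 740.0 ± 21 at P14 (limma, adjusted p = 0.0672). Fabp7, the brain lipid-binding protein of radial glia, fell by 3.04 ± 0.12 in cortex and by 0.45 ± 0.14 in hippocampus but rose by 2.06 ± 0.19 in the olfactory bulb. Ezh2, a histone methyltransferase that Nfib is known to repress, fell in all 3 regions by log2 values of 2.11, 2.18 and 1.72 (limma, adjusted p = 8.57e-09, 1.85e-06 and 1.23e-04). Nfib fell beside it in cortex and hippocampus and did not pass the test in the olfactory bulb. The glutamate transporter Slc1a3 rose in all regions, by 2.13, 2.60 and 3.45, as did Mmd2, by 1.36, 2.18 and 3.95, and Aldh1l1, by 0.45, 1.97 and 1.49. Apcdd1, an inhibitor of Wnt signalling, rose in cortex (1.06) and olfactory bulb (2.37) and was -0.32 in hippocampus. Zcchc24 rose in hippocampus (1.89) and olfactory bulb (3.93). Gfap, Slc1a3, S100b and Aldh1l1 are also on the astrocyte marker list.

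**Figure D4:**
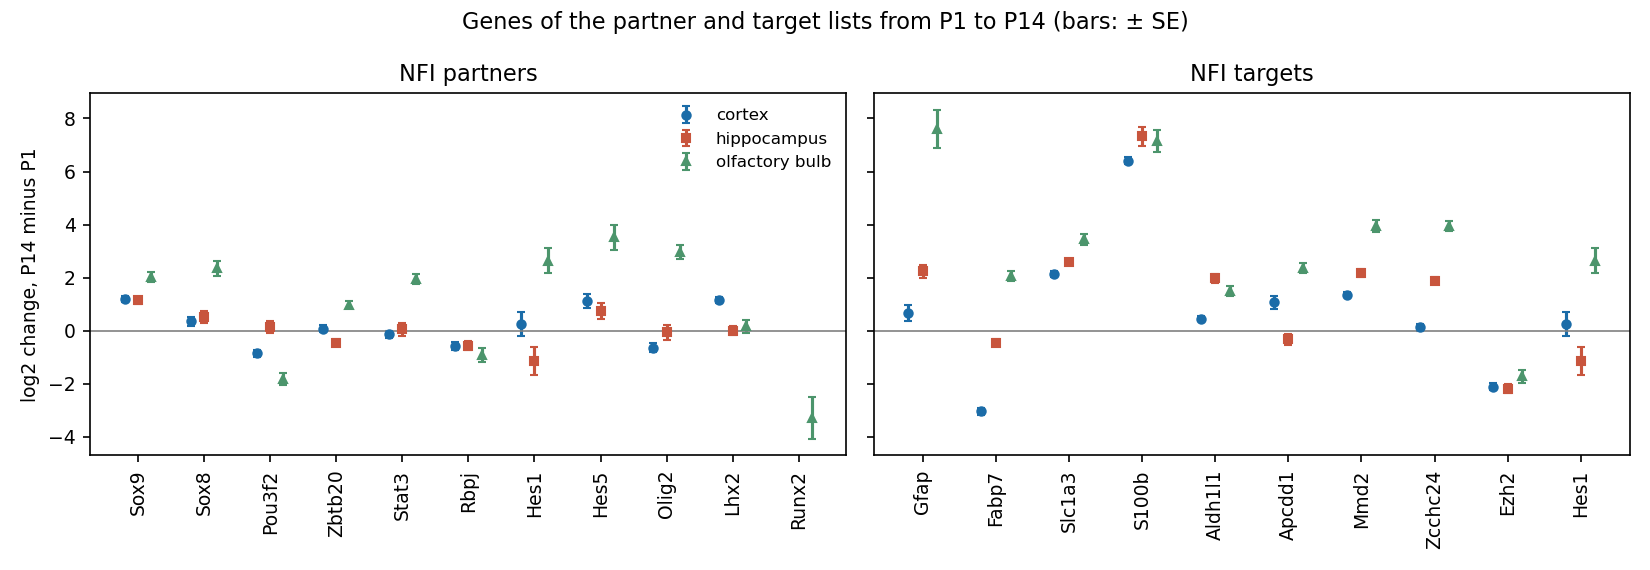
Difference in log2(value + 1) between P14 and P1 for tested genes of the partner list (left) and target list (right), with bars of 1 SE from limma and regions as circles, squares and triangles. S100b rises by more than 6 in each region, Ezh2 falls in each, and Fabp7 falls in cortex and hippocampus and rises in the olfactory bulb.

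Of 5 NFI targets known from neurons, Gabra6, a cerebellar GABA-A receptor subunit, was at 0 in all developmental groups, and 4 were tested. Cntn2, an axonal adhesion molecule, fell in all 3 regions, from 405 ± 53 to 13.4 ± 8.0 in cortex, from 1467 ± 298 to 11.5 ± 6.7 in hippocampus, as well as from 803 ± 42 to 8.19 ± 2.8 in the olfactory bulb. Wnt7a rose in cortex (1.90 ± 0.15) and olfactory bulb (0.72 ± 0.21), and Ephb1 rose in cortex (1.13 ± 0.14). Cdh2 fell by 0.45 ± 0.13 in hippocampus, and its rise of 0.34 ± 0.10 in the olfactory bulb turned to -0.13 under quantile normalization. Of these 4, 2 rose and 1 fell in cortex, 2 fell in hippocampus, whereas 2 rose and 1 fell in the olfactory bulb. The shares of all genes called were 64.4%, 49.5% and 56.1%. The neuron marker sum fell over the same ages, and its part in these changes was not tested.

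At P28 no member differed between Gabbr1 cKO and control by the test. In cortex 1 of 10188 genes was called (0.00982%), and in hippocampus and olfactory bulb 0 of 11639 and 0 of 11539 (0%). Gabbr1, at 29.8% and 34.9% of the control mean in hippocampus and olfactory bulb, was thus itself not called there. The lack of a call therefore does not show that a gene was unchanged. At an unadjusted p under 0.05 there were 221, 296 and 349 genes (limma), and DESeq2 called 1, 1 and 22. The partners tested (10 in cortex, 10 in hippocampus, 12 in the olfactory bulb), the 10 targets and the 4 tested neuronal targets also gave 0 calls.

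In cortex, control and cKO libraries overlapped for all members. Nfia was 3136, 2885, 2586 and 2222 in control and 3157, 2689, 2454 and 1790.3 in cKO, a difference of -0.12 with a 95% interval from -0.55 to 0.31. Nfib was 1487, 1741, 1576 and 1638 against 1874, 1697, 1669 and 1461, a difference of 0.05 (-0.29 to 0.40). Nfic was 402, 312, 299 and 412 against 434, 451, 476 and 350.2, a difference of 0.27 (-0.15 to 0.69). For Nfic 3 of the 4 cKO libraries were above all controls. Nfix was 825, 878, 526 and 609 against 837, 742, 707 and 438, a difference of -0.07 (-0.56 to 0.43). The cortex libraries come in 2 title styles in the labels. Among those titled by region alone, 2 control and 3 cKO, the differences were -0.13, 0.12, 0.36 and -0.16 for Nfia, Nfib, Nfic and Nfix. Among those with a P28 title, 2 control and 1 cKO, they were -0.42, -0.14, -0.0040 and -0.37. Genotypes were thus spread unevenly over the styles. Levels of Nfix also separated by style, at 438, 526 and 609 in the libraries with a P28 title and 707 to 878 in the others. Nfia, Nfib and Nfic overlapped between the styles. Rn45s took a lower share of reads in every P28-titled cortex library than in every other one. The difference in level between the styles was not tested. Oligodendrocyte precursor markers summed to 313 to 422 normalized reads in cortex control and 447 to 727 in cKO, and their part was not tested.

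In hippocampus Nfix was the one member whose genotypes did not overlap. The share of all genes that separate in this way was not counted, so nothing particular to Nfix is read from it. Nfix was 1995 and 1472 in control and 1008, 1426, 1229.6 and 775 in cKO, so that every cKO library was below both controls. The difference was -0.66 with a 95% interval from -1.37 to 0.04 (limma, adjusted p = 0.936), and the exact two-sided permutation p of 0.133 is the smallest that 4 against 2 libraries allow. Nfia was 3303 and 3354 in control and 4079, 7761, 3404 and 2631 in cKO, and the value of 7761 belongs to replicate 2 with low Rn45s. Its difference of 0.30 became -0.0047 without that library. Nfib was 1846 and 2281 against 2453, 3079.5, 1967 and 1895, a difference of 0.17 (-0.50 to 0.84). Nfic was 756 and 721 against 729, 693, 740.1 and 506, a difference of -0.16 (-0.77 to 0.44). Without replicate 2 the Nfib, Nfic and Nfix differences were 0.03, -0.19 and -0.80. Leaving out 1 library at a time, the Nfix difference ran from -0.88 to -0.44. Endothelial and mural markers summed to 210 to 275 normalized reads in these controls and 352 to 646 in cKO, and microglial markers to 45.4 to 52.4 and 59.1 to 527. Choroid plexus and meningeal sums ran from 10595 to 135000 over both genotypes. The part of these cells was not tested.

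In olfactory bulb, control replicate 2, the other library with low Rn45s, was the highest control for 3 members and the lowest for Nfic. Nfia was 2294, 4090.3 and 2199.9 in control and 2541, 2398 and 2759 in cKO. Nfib was 1517, 3086 and 1451 against 1541, 1332 and 1555. Nfic was 301, 123 and 367 against 376, 333 and 395, and Nfix was 844, 1546 and 642 against 821, 873 and 664. The groups overlapped for each. The differences were -0.10, -0.36, 0.62 and -0.27 for Nfia, Nfib, Nfic and Nfix, with 95% intervals of -0.67 to 0.47, -1.003 to 0.277, -0.21 to 1.45 and -0.96 to 0.41. Without control replicate 2 they were 0.19, -0.01, 0.14 and 0.08.

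**Figure D5:**
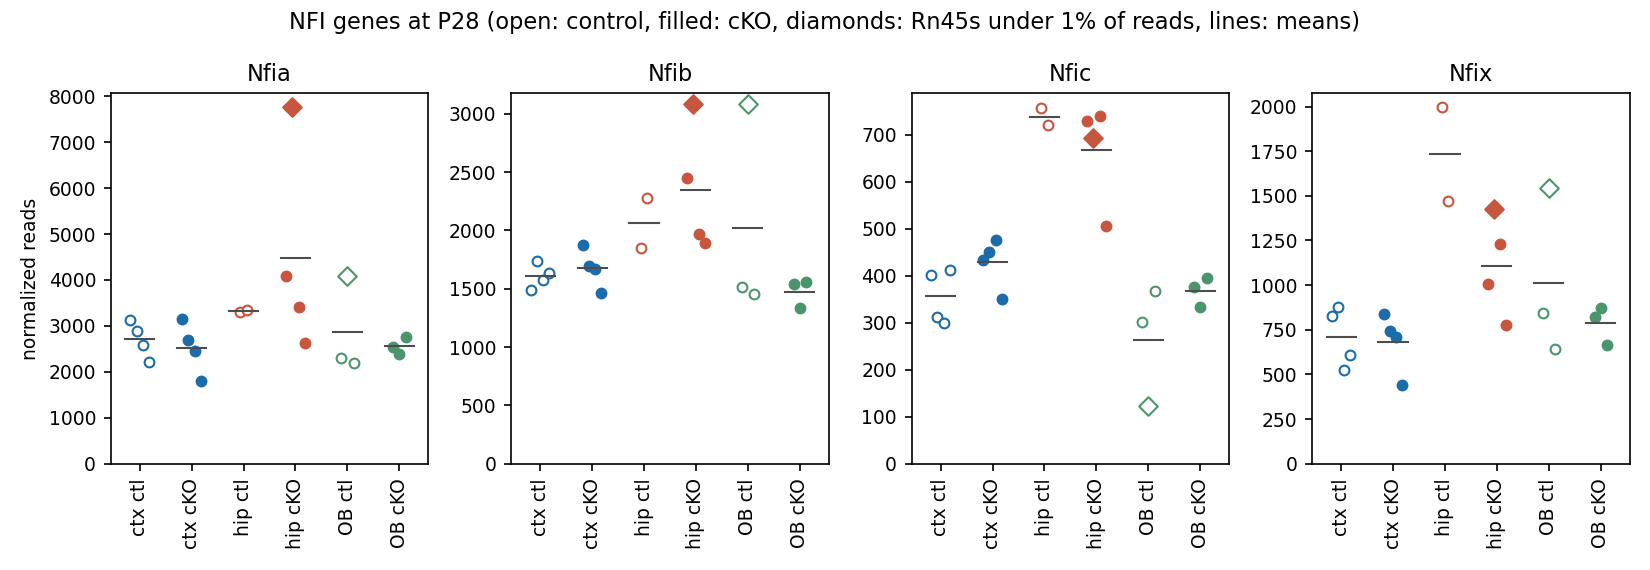
Normalized reads of each NFI gene in every P28 library (ctx, cortex; hip, hippocampus; OB, olfactory bulb; ctl, control), with open symbols for control, filled for cKO, diamonds for the 2 libraries with low Rn45s and lines at group means. Control and cKO overlap in every panel and region except Nfix in hippocampus, where the cKO libraries are between 775 and 1426 and the controls at 1472 and 1995.

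As at P14, per kilobase Nfia was highest and Nfic lowest by mean in all 6 P28 groups, at 277 ± 40 and 53.7 ± 8.9 normalized reads per kilobase in cortex control. Unlike at P14, Nfia and Nfib libraries overlapped per kilobase in cortex cKO, hippocampus cKO and olfactory bulb control. Nfix and Nfic overlapped in cortex cKO. The log2 ratio of Nfib to Nfia was negative in all P28 libraries. Its control and cKO means were -0.74 and -0.57 in cortex, -0.70 and -0.83 in hippocampus, then -0.53 and -0.80 in the olfactory bulb. The olfactory bulb groups did not overlap (exact permutation p = 0.1, the smallest allowed, adjusted 0.212). In hippocampus the ratios of Nfix to Nfia and to Nfib were lower in every cKO than in every control library, by 0.97 and 0.83 on the log2 scale (exact permutation p = 0.133, adjusted 0.240). The ratio of Nfix to Nfib differed by -0.46 without control replicate 1.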

How the data were processed

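Gene expression was measured by bulk RNA-seq in 48 mouse libraries in 15 groups. Libraries were made with the Nugen Trio kit, per the labels' protocols. STAR 2.5.0a, DESeq2 1.20.0 and build mm10 (GRCm38) are named, per the submitters' processing notes; the counting program, annotation and strand setting are not given in the sources used here. As deposited, each of the 6 tables gives a normalized signal for every gene, and 100% were whole multiples of one step per library within 0.01 reads, so whole reads were recovered. For replicate 2 of olfactory bulb P28 cKO the step is near 1 read, which makes that check weak. A set of 27 symbols that had become dates was restored by row position, using the table where they are intact.

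Genes with a mean of at least 10 over a table were compared within it on log2(value + 1) with limma 3.58.1 (lmFit, eBayes with trend, R 4.3.3). P values were adjusted by Benjamini-Hochberg over all genes tested, and an adjusted p under 0.05 was called. Fold changes on this scale understate those of low genes. The procedure was tested on simulated data. Ratios were compared with exact permutation tests. Alternatives tried were pseudocounts of 8 and 0.1, no low-value filter, TMM, quantile normalization, edgeR 4.0.16 and DESeq2 1.42.0 on recovered reads, fits of only the 2 ages compared, the title style as a covariate, and leaving out each replicate. Exon length was the union of GENCODE M21 protein-coding exons; the longest coding transcript was added after seeing the data.

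The named genes are the members, Gabbr1, the fixed lists and markers, and the 3 genes most correlated with each member among genes with a mean of at least 100, leaving out predicted genes. Rn45s was added for the library check. Members and lists were chosen with earlier results of these data known. Replicate numbers follow accession order and pair nothing. Protein sequences were not used here.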

Additional observations from a re-analysis of the deposited data

Results flagged for a closer look

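In cortex at P14, Nfix in replicate 2 was 1314 normalized reads, apart from the other 3 libraries at 1529 to 1564; its gap to the nearest took a share of 0.862 of the group's range. There were 16 sets looked at, each being 1 member in 1 group of 4 libraries, and members of a group share its libraries. Chance alone marks about 1 in 20, so 1 mark is near what chance gives. From P1 to P14 Nfix changed by 1.60 on the log2 scale in olfactory bulb against -1.07 in cortex and -1.25 in hippocampus, all called. The P1 and P14 libraries did not overlap within any of these regions. From P1 to P7 Nfix differed by 0.44 in olfactory bulb, which did not pass the test (0.22 without P7 replicate 3), against called values of -1.23 and -1.30. From P1 to P7, Nfia was 0.35 in cortex, called, and -0.38 in hippocampus, not called, without overlap between the ages in either. The differences between regions were not tested, since the tables were scaled separately.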

How the results depend on the processing

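Over the alternatives, 474 of 512 values for the members' age changes and 158 of 168 for the genotype differences kept their direction and side of the threshold. The cause of the other values was not tested. Under quantile normalization, P14 against P1 turned for Nfia to -0.21 in cortex and -0.99 in hippocampus, and became called for Nfib in olfactory bulb at -0.82. P14 against P7 then turned for Nfia in hippocampus (-0.10) and for Nfix in cortex (-0.10) and hippocampus (-0.42). It made called the P14 against P7 values of Nfia in cortex (-0.48) and of Nfib in hippocampus (-0.69) and olfactory bulb (-0.64), and P7 against P1 of Nfia in hippocampus (-0.90); DESeq2 called cortical Nfix from P7 to P14 (0.31). At P28 it gave 0.03 for Nfia in olfactory bulb and -0.02 for Nfib in hippocampus. Hippocampal Nfia from P1 to P14 became called under TMM (0.39) and DESeq2 (0.36). The uncalled P14 against P7 values turned, under TMM, edgeR and DESeq2, to 0.13, 0.12 and 0.15 for cortical Nfia and to 0.04, 0.03 and 0.05 for hippocampal Nfib. For olfactory bulb Nfib they turned to 0.11 under TMM and 0.01 under edgeR.

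Leaving out 1 replicate at a time, P14 against P1 ran for Nfia in hippocampus from 0.19 to 0.48, and P7 against P1 for cortical Nfic from -0.13 to 0.18. P14 against P7 ran for Nfia in cortex from -0.09 to 0.06, for Nfib in hippocampus from -0.10 to 0.08 and in olfactory bulb from -0.18 to 0.30, and for Nfix from -0.0023 to 0.27 in cortex, with -0.01 to 0.17 in hippocampus. The P7 against P1 rise of cortical Nfia was no longer called without P1 replicate 2 (0.32) or P7 replicate 2 (0.27). For cKO against control the ranges were, in cortex, -0.24 to 0.04 for Nfia, -0.0018 to 0.12 for Nfib and -0.20 to 0.13 for Nfix. They were -0.0047 to 0.52 for Nfia in hippocampus, and -0.26 to 0.19 for Nfia and -0.55 to 0.08 for Nfix in olfactory bulb. The ratios that changed sign ran from -0.06 to 0.13 (Nfix to Nfia) and -0.24 to 0.01 (Nfix to Nfib) in cortex, from -0.28 to 0.03 (Nfib to Nfia) in hippocampus, and from -0.05 to 1.19 (Nfic to Nfia) and -0.06 to 0.25 (Nfix to Nfib) in olfactory bulb.

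The count of genes called from P1 to P7 moved from 2092 to 4326 in hippocampus, also from 1214 to 3514 in the olfactory bulb, with only the 2 ages compared in the fit, and to 2260 in olfactory bulb under DESeq2. Leaving out replicates it ran from 1359 to 1494 and from 520 to 1393, and from P7 to P14 in hippocampus from 2007 to 4146. With the longest coding transcript as the length, Nfia and Nfix swapped places per kilobase in hippocampus at P1. Some overlaps changed too. Nfix and Nfib no longer overlapped in cortex at P1 and P14, nor Nfix and Nfic in cortex cKO. Nfia and Nfix then overlapped in hippocampus P28 control. No paired analysis was possible because the replicate numbers follow accession order and pair no libraries. Precision at P28 is limited by 2 to 4 libraries per group.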
